A study of Caenorhabditis elegans with 46 samples.

Results

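miR-49 and miR-83 are Caenorhabditis elegans microRNAs classed as homologues of vertebrate miR-29. They were chosen by name: every row of the hairpins mir-49 and mir-83 was taken from the count tables, which gave 4 mature arms, cel-miR-49-3p, cel-miR-49-5p, cel-miR-83-3p and cel-miR-83-5p, written below without the species prefix, of 473 worm arms listed. All 4 were among the 395 arms that passed the filter on low counts. A hairpin is cut into a 5p and a 3p arm, and usually 1 of them is loaded into Argonaute and accumulates while the other is degraded.

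A microRNA pairs with messenger RNAs mainly through its seed near the 5′ end, and microRNAs that share a seed are grouped into a family. Vertebrate miR-29 is best known for repressing collagens and other genes of the extracellular matrix. In C. elegans, mir-83 acts with mir-34 in the migration of the gonad's distal tip cells, and miR-83 made in the intestine is exported to other tissues during ageing, where it lowers the autophagy gene cup-5. A distinct function of mir-49 is not stated here. Mature sequences were not used here, so the seed match between both microRNAs was not examined.

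Small RNA of 18 to 30 nt was sequenced from at least 20 ug of total RNA of whole L1 larvae in 46 libraries, 23 after oxidation with sodium periodate and 23 untreated. Periodate destroys an unprotected 3′ end, so the RNA cannot be ligated and is lost, while a 2′-O-methyl group protects the end. Most animal microRNAs lack this group, and Ath-HEN1, a methyltransferase of Arabidopsis thaliana, adds it in the cells where its transgene is active, which makes a microRNA's survival of oxidation a readout of its presence in those cells. The comparison in each genotype is therefore oxidised against untreated RNA.

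There were 10 transgenic genotypes and wild type N2. In 8 of the transgenic genotypes the worm's own small RNA methyltransferase gene carried a null allele, henn-1(0), and these used rps-5 (a ribosomal protein gene, broadly active), rab-3, unc-31 and rgef-1 (each active across the nervous system), elt-2 (intestine), myo-2 (pharyngeal muscle), myo-3 (body wall muscle) and ASE (a pair of taste neurons) to drive Ath-HEN1. The other transgenic genotypes carried the myo-3 or the ASE driver in worms with henn-1 intact, written myo-3 henn-1(+) and ASE henn-1(+), and wild type worms had henn-1 and no transgene. Driver names without an allele refer to the henn-1(0) worms, except that myo-3 and ASE are always given with their allele. Wild type had 2 libraries per condition, and each transgenic genotype 2 from different transgenic lines, 20 strains in all, except rps-5 with 3 libraries, of which 2 came from line 16.1 and 1 from line 22.3. The series' design text calls the libraries biological replicates. Since whole larvae were used, fewer cells of a type and less RNA per cell cannot be told apart.

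Library totals were 426000 to 35300000 counts in oxidised and 10700000 to 43300000 in untreated libraries. The shallowest were the oxidised wild type (426000 and 847000), ASE henn-1(+) (633000 and 1270000), ASE henn-1(0) (1011043 and 1055616) and myo-3 henn-1(+) libraries (1140000 and 1440000). No member was at 0 in any library, and the lowest member count was 8 (miR-49-5p in an oxidised myo-3 henn-1(+) library). Each marker arm had a higher effect with its matching drivers than in wild type, with the TMM scaling described next. On oxidation, miR-1-3p of muscle changed by 2.34, 2.85 and 3.51 on the log2 scale in myo-2, myo-3 henn-1(+) and myo-3 henn-1(0) worms, against -4.47 in wild type. miR-60-3p of the intestine changed by 1.47 in elt-2 worms, against -3.89 in wild type. It was not confined to that driver. With the neuronal drivers it changed by -0.74 in rab-3, -1.33 in ASE henn-1(0), -3.42 in unc-31, -3.59 in rgef-1 and -4.73 in ASE henn-1(+) worms. miR-124-3p of neurons changed by 0.98, 1.44 and 2.47 in rab-3, unc-31 and rgef-1 worms, and lsy-6-3p of the left ASE neuron by 1.36 and 4.60 in ASE henn-1(+) and ASE henn-1(0) worms, against -4.71 and -3.38 in wild type.

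Levels are given as CPM, an arm's counts scaled to a common library total, so that a level in an oxidised library is a share of the RNA that survived. Effects are log2 of oxidised over untreated with their standard error (SE), from edgeR's quasi-likelihood test on TMM-scaled counts in 1 model of all 46 libraries, and "called" means a Benjamini-Hochberg adjusted p at or under 0.05 over the 395 arms. The scaling between libraries carries much of an effect here. The median effect over the 395 arms was -2.20 in wild type, -1.83 in ASE henn-1(+), -1.72 in myo-3 henn-1(0), -1.61 in myo-2, -1.43 in elt-2, -0.99 in myo-3 henn-1(+), -0.58 in ASE henn-1(0), -0.42 in unc-31, -0.04 in rab-3, 0.11 in rgef-1 and 0.50 in rps-5 worms. RLE factors moved these medians by -0.26 to 2.39 and scaling by total counts by -0.05 to 2.09, and the arms called in wild type were 82 higher and 193 lower with TMM but 138 higher and 83 lower with RLE factors. For this reason each member is also given relative to the median arm, and ratios within a library, which need no scaling, are given for the main pairs. Each effect was recomputed under 7 alternatives: RLE factors, total counts, no filter, another TMM reference library, DESeq2, the genotype's own libraries alone, and the transgenic line as a block. Differences between genotypes had 6 of these, since they cannot come from 1 genotype alone.

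The hairpin mir-49 lies on chromosome X at 9989282 to 9989378 (WBcel235, plus strand) between genes, 4342 bases from F19C6.5 and 1869 bases from grk-1, which are both on the minus strand. The hairpin mir-83 lies on chromosome IV at 7841631 to 7841728 (plus strand) and overlaps the non-coding RNA gene C06A6.9 of the same strand. Its nearest other neighbours are C06A6.7, 3104 bases away on the minus strand, and C06A6.2, 4893 bases away on the plus strand.

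In untreated larvae both 3p arms were abundant and both 5p arms scarce. Over the 23 untreated libraries miR-83-3p lay between 1502 and 7828 CPM with a median of 5044, and miR-49-3p between 2302 and 4861 CPM with a median of 3336. The 5p arms had medians of 132 CPM for miR-83-5p (68.7 to 318) and 34.5 CPM for miR-49-5p (13.9 to 43.0). Ranked by count within each library, the median ranks among the 473 arms were 40 for miR-83-3p, 45 for miR-49-3p, 95 for miR-83-5p and 137 for miR-49-5p. Ordered by their untreated means, miR-49-3p was highest at 4032 ± 1003 CPM in ASE henn-1(0) worms and lowest at 2694 ± 554 CPM in elt-2 worms, and miR-83-3p was highest at 7504 ± 367 CPM in rab-3 worms and lowest at 2494 ± 1403 CPM in unc-31 worms (SD, n = 2 each). All 10 neighbours in either order had overlapping libraries, so no step between neighbours exceeded the spread of the replicates. The ends of each order did not overlap, for miR-83-3p with 7244 and 7764 CPM in rab-3 against 1502 and 3486 CPM in unc-31 worms. Differences in untreated level between single genotypes were not tested.

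The null allele of henn-1 went with no detectable change of an untreated member. The mean of the 8 untreated henn-1(0) genotypes minus that of the 3 with henn-1 was 0.01 ± 0.17 on the log2 scale for miR-49-3p, -0.19 ± 0.20 for miR-49-5p, 0.31 ± 0.21 for miR-83-3p and -0.16 ± 0.24 for miR-83-5p (SE). None of the 4 was called (edgeR, adjusted p from 0.705 to 1.00, no unadjusted p under 0.05, and none in DESeq2), where 0.253% of the 395 arms were. The 95% intervals ran from -0.34 to 0.36 for miR-49-3p and from -0.11 to 0.73 for miR-83-3p.

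**Figure D1:**
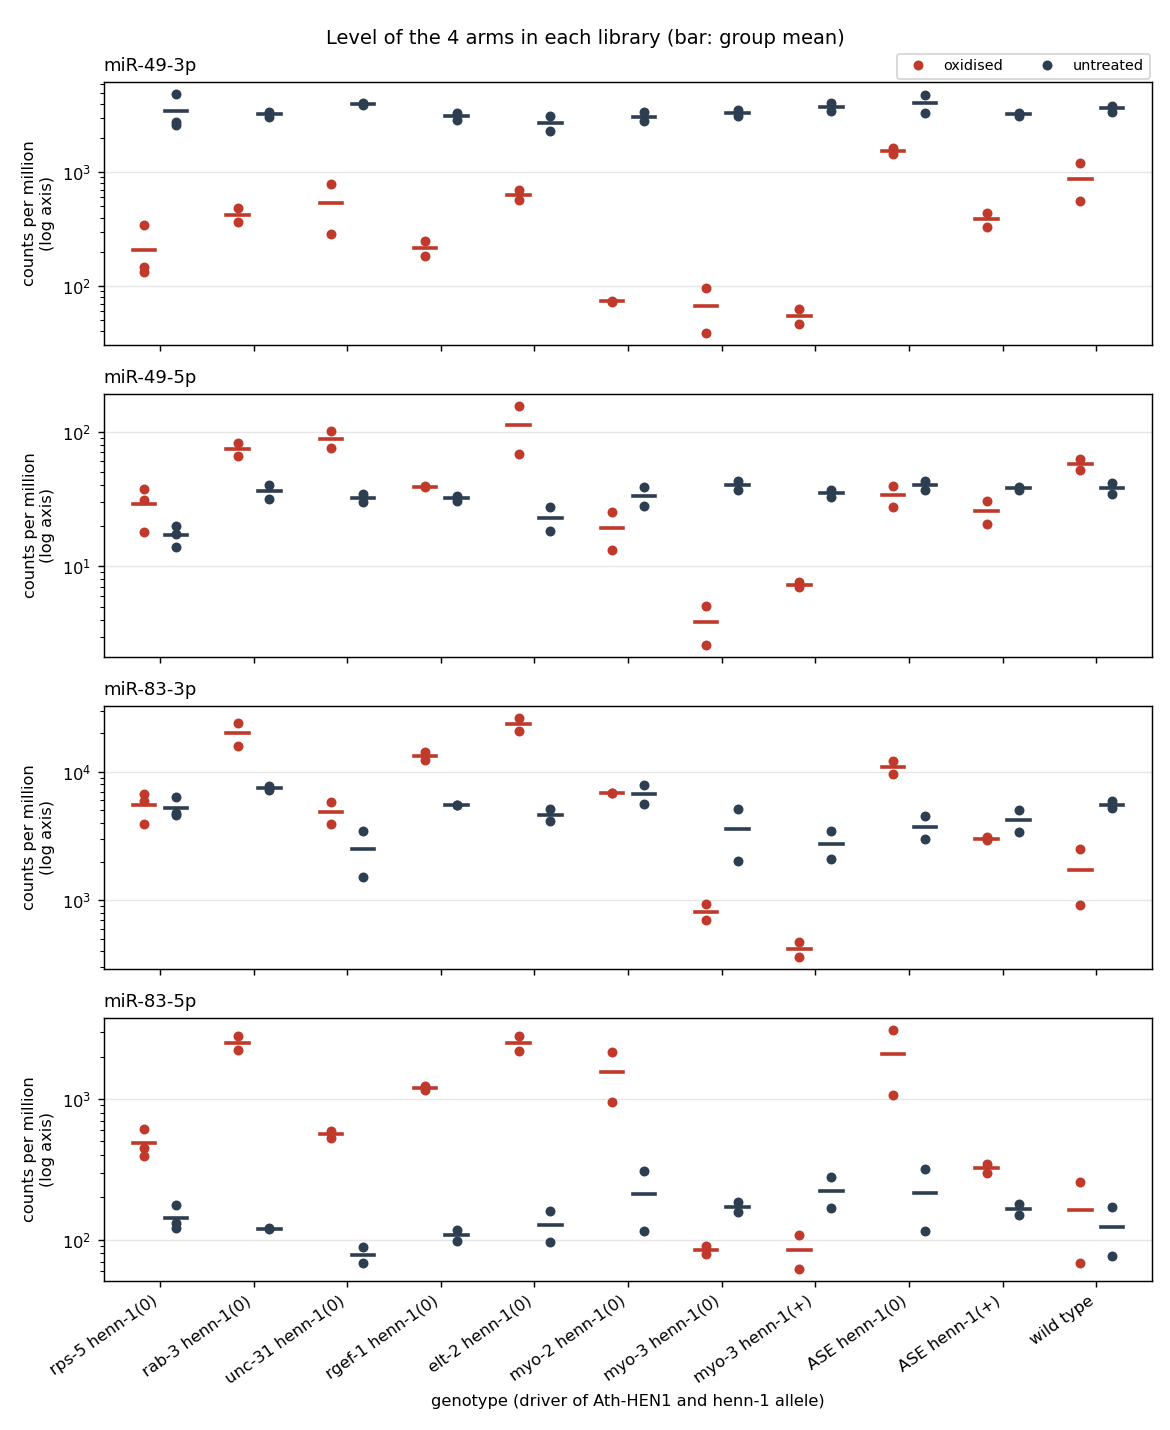
Level of each member in every library, in CPM on a log axis, by genotype; red points stand for oxidised and dark points for untreated libraries, and bars for group means. miR-49-3p lies at 38.7 to 1635 CPM in oxidised and 2302 to 4861 CPM in untreated libraries, while the oxidised libraries of miR-83-3p spread from 362 to 26344 CPM around untreated values of 1502 to 7828 CPM.

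miR-49-3p was depleted by periodate in all 11 genotypes, and by more than the median arm in each. The oxidised libraries held 38.7 to 1635 CPM and the untreated ones 2302 to 4861 CPM, so the conditions did not overlap even across genotypes. How many other arms were apart in this way was not counted. In unscaled CPM the highest oxidised levels were those of ASE henn-1(0) worms, with 1458 and 1635 CPM against 3323 and 4741 untreated, and of wild type, which has no Ath-HEN1, with 1196 and 561 CPM against 3851 and 3401. The intestinal driver followed, with 572 and 692 CPM in oxidised elt-2 libraries against 2302 and 3086 CPM in untreated ones. These 3 genotypes had oxidised CPM lower by 2.61, 4.13 and 4.26 times.

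With the neuronal and broad drivers and in ASE henn-1(+) worms the mean oxidised CPM was lower than in these 3, although the fitted effects given below were not all lower than that of wild type. Oxidised rab-3 libraries held 482 and 363 CPM against 3029 and 3402 untreated, and oxidised rgef-1 libraries 184 and 248 CPM against 2847 and 3336. In unc-31 worms the lines differed, with 287 CPM (line 1) and 785 CPM (line 5) oxidised against 3928 and 4053 untreated. In rps-5 worms line 16.1 gave 132 and 147 CPM and line 22.3 gave 345 CPM oxidised, against 2604, 2773 and 4861 untreated. Oxidised ASE henn-1(+) libraries held 436 and 333 CPM against 3140.2 and 3302.

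The muscle drivers had the lowest oxidised CPM. Oxidised libraries held 74.1 and 72.4 CPM in myo-2 worms against 2799 and 3344 untreated, 46.6 and 62.3 CPM in myo-3 henn-1(+) worms against 3444 and 4046, and 96.0 and 38.7 CPM in myo-3 henn-1(0) worms against 3527 and 3134. These are 41.9, 68.8 and 49.4 times lower. Ordered by oxidised mean, only ASE henn-1(0) over wild type, ASE henn-1(+) over rgef-1 and rps-5 over myo-2 stood apart without overlap, and the other 7 neighbours overlapped.

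The fitted effects of miR-49-3p were -4.24 ± 0.42 in wild type, -4.36 ± 0.34 in rps-5, -3.37 ± 0.40 in rab-3, -3.84 ± 0.41 in unc-31, -4.06 ± 0.42 in rgef-1, -2.17 ± 0.38 in elt-2, -5.38 ± 0.44 in myo-2, -6.18 ± 0.46 in myo-3 henn-1(+), -5.64 ± 0.45 in myo-3 henn-1(0), -4.96 ± 0.43 in ASE henn-1(+) and -2.04 ± 0.38 in ASE henn-1(0) worms (SE, n = 2 libraries per condition, 3 in rps-5). All 11 were called (edgeR, adjusted p at most 4.65e-05), and the arm was called lower in each of 123 further fits over other scalings, tools, filters and omitted libraries, at -6.59 to -1.24. Without the oxidised myo-3 henn-1(0) library of line 2.2 the effect there was -6.25. Relative to the median arm the effects ran from -5.20 in myo-3 henn-1(+) to -0.74 in elt-2 worms.

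miR-49-5p, the scarce arm of the same hairpin, was not depleted in the same way. Intestinal Ath-HEN1 went with more of it, 155 and 68.3 CPM in oxidised elt-2 libraries against 27.6 and 18.4 CPM in untreated ones, an effect of 2.23 ± 0.44 (edgeR, adjusted p = 3.38e-05). This was called under all 7 alternatives, at 2.14 to 3.21, and came to 1.55 without the oxidised line 3A library. In body wall muscle worms it fell: oxidised myo-3 henn-1(+) libraries held 7.03 and 7.61 CPM (8 and 11 counts) against 37.2 and 32.6 CPM, and oxidised myo-3 henn-1(0) libraries 5.07 and 2.61 CPM against 43.0 and 36.6. The effects were -2.33 ± 0.51 and -3.37 ± 0.48 (adjusted p = 0.00014 and 1.14e-07), and both stayed called under all 7 alternatives.

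In wild type and ASE henn-1(+) worms the call for miR-49-5p depended on the scaling. Oxidised wild type libraries held 51.7 and 62.6 CPM against 41.8 and 34.7, higher in CPM, while the fitted effect was -1.50 ± 0.45 (edgeR, adjusted p = 0.00361) with TMM and 0.91 with RLE factors, 0.59 with total counts and 0.22 with another TMM reference library, none of these called. DESeq2 called it higher at 0.91, and of the 7 alternatives only the genotype's own libraries and the block called it lower. Without the oxidised wild type library of 426000 counts the call was lost at -1.19. The ASE henn-1(+) libraries held 20.6 and 30.8 CPM oxidised against 38.7 and 37.0, an effect of -2.36 ± 0.47 (adjusted p = 3.20e-05) that was called in 2 of 7 alternatives, came to 0.01 in DESeq2, and to -2.97 without the oxidised line 9 library.

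The other 6 genotypes gave no call for miR-49-5p. The effects were 0.47 in rps-5, 0.57 in rab-3, 0.72 in unc-31, 0.09 in rgef-1, -0.71 in myo-2 and -0.90 in ASE henn-1(0) worms (edgeR, adjusted p from 0.119 to 0.861), although 5 of 7 alternatives called the unc-31 effect higher, at up to 1.45, and total counts also called the rps-5 (0.75) and rab-3 effects (1.04). In CPM the oxidised and untreated libraries were apart, with the oxidised ones higher, in 5 of the 11 genotypes, wild type, rab-3, unc-31, rgef-1 and elt-2, apart with the oxidised ones lower in 4, and overlapped in 2, rps-5 and ASE henn-1(0). The share of all arms that stood apart in this way was not counted, so these counts are not read as particular to miR-49-5p. Relative to the median arm, miR-49-5p was below it in 6 genotypes, by at most -1.65 in myo-3 henn-1(0) worms, and 3.66 above it in elt-2 worms. Leaving out 1 library gave calls in unc-31 worms (1.16 without the oxidised line 5 library) and in myo-2 worms (-1.55 without the oxidised line 30 library).

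miR-83-3p survived oxidation best with intestinal Ath-HEN1. Oxidised elt-2 libraries held 26344 and 20975 CPM against 5144 and 4144 untreated, an effect of 2.30 ± 0.45 (edgeR, adjusted p = 2.95e-05) that was called under all 7 alternatives, at 2.29 to 3.25. Relative to the median arm, miR-83-3p stood 3.73 higher in elt-2 worms. Over the 23 oxidised libraries of all genotypes its best rank was 11 among the 473 arms of a library.

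The rab-3 and rgef-1 worms came next in level, while the third neuronal driver, unc-31, stood lower in the order. Oxidised rab-3 libraries held 15913 and 24060.0 CPM against 7764 and 7244 untreated, and oxidised rgef-1 libraries 14367 and 12299 CPM against 5505 and 5523. In unc-31 worms line 1 gave 5776 CPM oxidised and 3486 untreated, and line 5 gave 3901 oxidised and 1502 untreated. The CPM of oxidised and untreated libraries did not overlap in any of the 3, a measure that was not counted for arms other than members. The fitted effects were smaller, 0.94 ± 0.43 in rab-3 (edgeR, adjusted p = 0.0504; called in 3 of 7 alternatives, at 0.92 with the transgenic line as a block and up to 1.41), 0.17 ± 0.43 in unc-31 (0.728; 0.96 and called with total counts) and 1.09 ± 0.44 in rgef-1 worms (0.0239). The rgef-1 call was lost with RLE factors at 0.78, in DESeq2 at 0.78 and without a filter at 0.96. It was also lost without the untreated line 3A (1.08), untreated line 14C (1.11) or oxidised line 3A library (0.77).

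In ASE henn-1(0) worms oxidised libraries held 9698 and 12182 CPM of miR-83-3p against 4491 and 2975 untreated, apart without overlap. The effect of 0.92 ± 0.43 was not called (edgeR, adjusted p = 0.0952), while all 7 alternatives called it, at 0.92 to 1.55, the block of the transgenic line among them at 0.93. The rps-5 and myo-2 worms had overlapping levels: oxidised rps-5 libraries held 6708 and 5875 CPM (line 16.1) and 3938 CPM (line 22.3) against 6338, 4613 and 4813, and oxidised myo-2 libraries 6879.6 and 6839 CPM against 7828 and 5625. The effects were -0.17 ± 0.35 and 0.03 ± 0.43 (adjusted p = 0.703 and 0.958), the second of them 1.29 and called with RLE factors and in DESeq2.

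Elsewhere miR-83-3p was depleted. Oxidised wild type libraries held 2516 and 919.7 CPM against 5870.4 and 5210.1 untreated, an effect of -3.91 ± 0.48 (edgeR, adjusted p = 5.15e-09). In myo-3 henn-1(+) worms the levels were 476 and 362 CPM against 3438 and 2078, and in myo-3 henn-1(0) worms 698 and 926 CPM against 2029 and 5101, with effects of -2.80 ± 0.46 and -2.05 ± 0.45 (adjusted p = 2.13e-06 and 0.000123). The ASE henn-1(+) libraries held 3081 and 2917 CPM oxidised against 5044 and 3401, an effect of -2.36 ± 0.45 (1.88e-05). The wild type and myo-3 henn-1(+) effects were called lower under all 7 alternatives, whereas the myo-3 henn-1(0) effect came to -0.34 and the ASE henn-1(+) effect to 0.02 with RLE factors, neither called, and each was called lower in 4 of 7. Without the untreated myo-3 henn-1(0) library of line 11.16 its effect was -1.29.

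In the oxidised order of miR-83-3p more neighbours stood apart than in that of miR-49-3p. It ran through elt-2 (23659 ± 3797 CPM), rab-3 (19987 ± 5761), rgef-1 (13333 ± 1462), ASE henn-1(0) (10940.2 ± 1757), myo-2 (6859 ± 28.5), rps-5 (5507 ± 1421), unc-31 (4838 ± 1326), ASE henn-1(+) (2999 ± 116), wild type (1718 ± 1129), myo-3 henn-1(0) (812 ± 161) and myo-3 henn-1(+) worms (419 ± 80.3; SD, n = 2 each, 3 in rps-5). Of the 10 neighbours, 7 stood apart without overlap, against 3 for miR-49-3p. This was not counted for arms other than members, so it is not read as particular to miR-83-3p. Those that overlapped were elt-2 and rab-3, rps-5 and unc-31, and wild type and myo-3 henn-1(0).

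miR-83-5p, the scarce arm, rose most. In elt-2 worms oxidised libraries held 2815 and 2204 CPM against 160.0 and 95.7 untreated, and in rab-3 worms 2216 and 2817 CPM against 120.4 and 118. In rgef-1 worms the levels were 1236 and 1162 CPM against 118 and 98.7. These effects were 4.26 ± 0.58, 3.93 ± 0.57 and 3.28 ± 0.55, all called.

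The arm was also called higher in 4 further genotypes. Oxidised libraries held 525 and 596 CPM in unc-31 worms against 68.7 and 88.5, 445, 395 and 616 CPM in rps-5 worms against 120.2, 132 and 176, and 955 and 2151 CPM in myo-2 worms against 116 and 308. In ASE henn-1(0) worms line 5 gave 1065 CPM oxidised and 115 untreated, and line 9 gave 3103 oxidised and 318 untreated. The effects were 2.05 ± 0.53, 1.48 ± 0.42, 2.98 ± 0.55 and 2.55 ± 0.54 (edgeR, adjusted p at most 0.0039). All 7 calls of a higher level held under all 7 alternatives and under each omitted library, although the myo-2 effect moved between 1.95 (without the oxidised line 30 library) and 3.80 (without the untreated line 30 library; 3.58 without the oxidised line 7 library). The ASE henn-1(0) effect came to 1.97 without the untreated line 5 library, 3.56 without the untreated and 1.72 without the oxidised line 9 library.

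Worms without Ath-HEN1, and those with it in body wall muscle, showed no such rise of miR-83-5p. Oxidised wild type libraries held 258 and 68.5 CPM against 171 and 76.8, which overlap. The wild type effect was -1.87 ± 0.53 with TMM (edgeR, adjusted p = 0.00225) and 0.55 with RLE factors, 0.38 with total counts and 0.15 without a filter, none of these called, and 2 of 7 alternatives called it. It lost the call without the untreated library of 171 CPM (-1.16) or the oxidised one of 68.5 CPM (-1.30), and came to -2.76 without the oxidised one of 258 CPM. In myo-3 henn-1(+) worms 107 and 62.3 CPM stood against 278 and 168, an effect of -1.47 ± 0.53 (0.0157) that lost its call with RLE factors at -0.70, and without the untreated line 2 (-1.03) or oxidised line 11 library (-1.09), and was -2.16 without the oxidised line 2 library.

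The myo-3 henn-1(0) libraries held 89.9 and 79.5 CPM of miR-83-5p oxidised against 185 and 157 untreated, and the ASE henn-1(+) libraries 346 and 299 CPM against 179.6 and 149. Neither effect was called (-0.97 ± 0.51 and -0.91 ± 0.51, edgeR, adjusted p = 0.0869 and 0.109), although both were called with the transgenic line as a block (-0.97 and -0.91), and in the genotype's own libraries alone. The ASE henn-1(+) effect was 1.48 and called higher with RLE factors and in DESeq2. Relative to the median arm, miR-83-5p lay above it in 10 genotypes, by 0.33 in wild type to 5.69 in elt-2 worms, and below it in myo-3 henn-1(+) worms at -0.48.

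**Figure D2:**
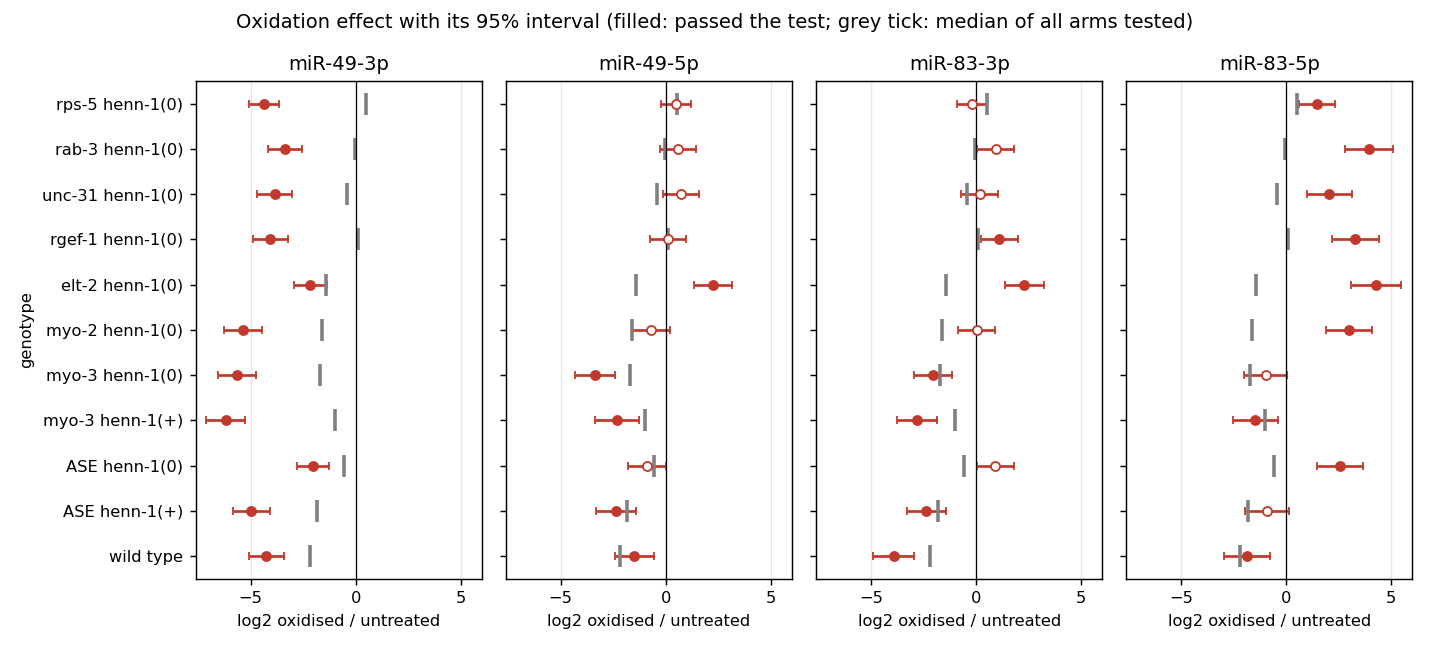
Oxidation effect (log2 of oxidised over untreated, TMM scaling) of each member in the 11 genotypes, with 95% intervals, filled where called; grey ticks mark the median effect of the 395 arms tested. miR-49-3p lies between -6.18 and -2.04 in every genotype, while miR-83-5p reaches 4.26 in elt-2 worms; the negative wild type values of both 5p arms (-1.50 and -1.87) turn positive with RLE factors, as does the -2.36 of miR-83-3p in ASE henn-1(+) worms.

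Counted by genotype, the members' calls were set against those of all arms. In wild type all 4 members were called, all lower, where 69.6% of the 395 arms were called in either direction. In elt-2 worms all 4 were called, 3 higher and 1 lower (background 74.9%), in rgef-1 worms 3, of which 2 were higher (72.4%), and in rab-3 and unc-31 worms 2 each, 1 higher and 1 lower (72.9% and 68.1%). The rps-5, myo-2 and ASE henn-1(0) worms also had 1 higher and 1 lower each (57.5%, 66.8% and 37.5%). All 4 were lower in myo-3 henn-1(+) (59%) and 3 were lower in both myo-3 henn-1(0) and ASE henn-1(+) worms (69.6% and 71.9%).

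Within a library the balance between both microRNAs moved with oxidation in every genotype. The ratio of miR-83-3p to miR-49-3p counts was 0.371 to 2.80 over the untreated libraries. In oxidised ones it was 92.8 and 94.4 in myo-2 worms against 2.80 and 1.68, 78.1 and 49.7 in rgef-1 worms against 1.93 and 1.66, and 46.0 and 30.3 in elt-2 worms against 2.23 and 1.34. Wild type worms moved least, with 2.10 and 1.64 oxidised against 1.52 and 1.53 untreated, a change of 0.28 on the log2 scale.

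The remaining genotypes lay between. Oxidised ratios were 33.0 and 66.2 in rab-3 worms against 2.56 and 2.13, 20.2 and 4.97 in unc-31 worms against 0.887 and 0.371, and 50.6, 39.9 and 11.4 in rps-5 worms against 2.43, 1.66 and 0.990. The ratios were 7.27 and 23.9 in myo-3 henn-1(0) worms against 0.575 and 1.63, and 10.2 and 5.81 in myo-3 henn-1(+) worms against 0.998 and 0.513. They were 6.65 and 7.45 in ASE henn-1(0) worms against 1.35 and 0.628, and 7.06 and 8.76 in ASE henn-1(+) worms against 1.61 and 1.03. In all 11 genotypes both conditions stood apart with the oxidised ratios higher, and the mean change was 3.69 on the log2 scale (SD over genotypes 1.41; two-sided permutation test within genotypes, p = 1e-05, the smallest that 100000 permutations can give, adjusted p = 1e-05 over 3 ratios). Ratios between arms of other microRNAs were not computed, so whether such a change is particular to this pair was not tested.

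The arm ratios of both hairpins shifted towards the 5p arm. The ratio of miR-49-3p to miR-49-5p was 3.55, 8.18 and 11.1 in oxidised rps-5 libraries against 149.99, 199 and 242 untreated, and 52.6 and 41.1 in ASE henn-1(0) worms against 90.2 and 110.4. Over genotypes its mean change was -3.54 (SD 1.17), from -4.82 in rps-5 to -1.12 in ASE henn-1(0) worms, with the conditions apart in 11 of 11. For miR-83-3p to miR-83-5p the ratio was 7.18 and 8.54 in oxidised rab-3 libraries against 64.5 and 61.1 untreated, and 9.74 and 13.4 in wild type against 34.3 and 67.9. Its mean change was -1.91 (SD 0.62), from -3.003 in rab-3 to -0.99 in myo-3 henn-1(0) worms, the 1 genotype of 11 where the conditions overlapped. Both changes had p = 1e-05 in the same permutation test, the smallest possible, and adjusted p = 1e-05. Both shifts were also seen in wild type worms, which have no Ath-HEN1. Arm ratios of other hairpins were not computed, so whether the shift is particular to these hairpins was not tested.

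**Figure D3:**
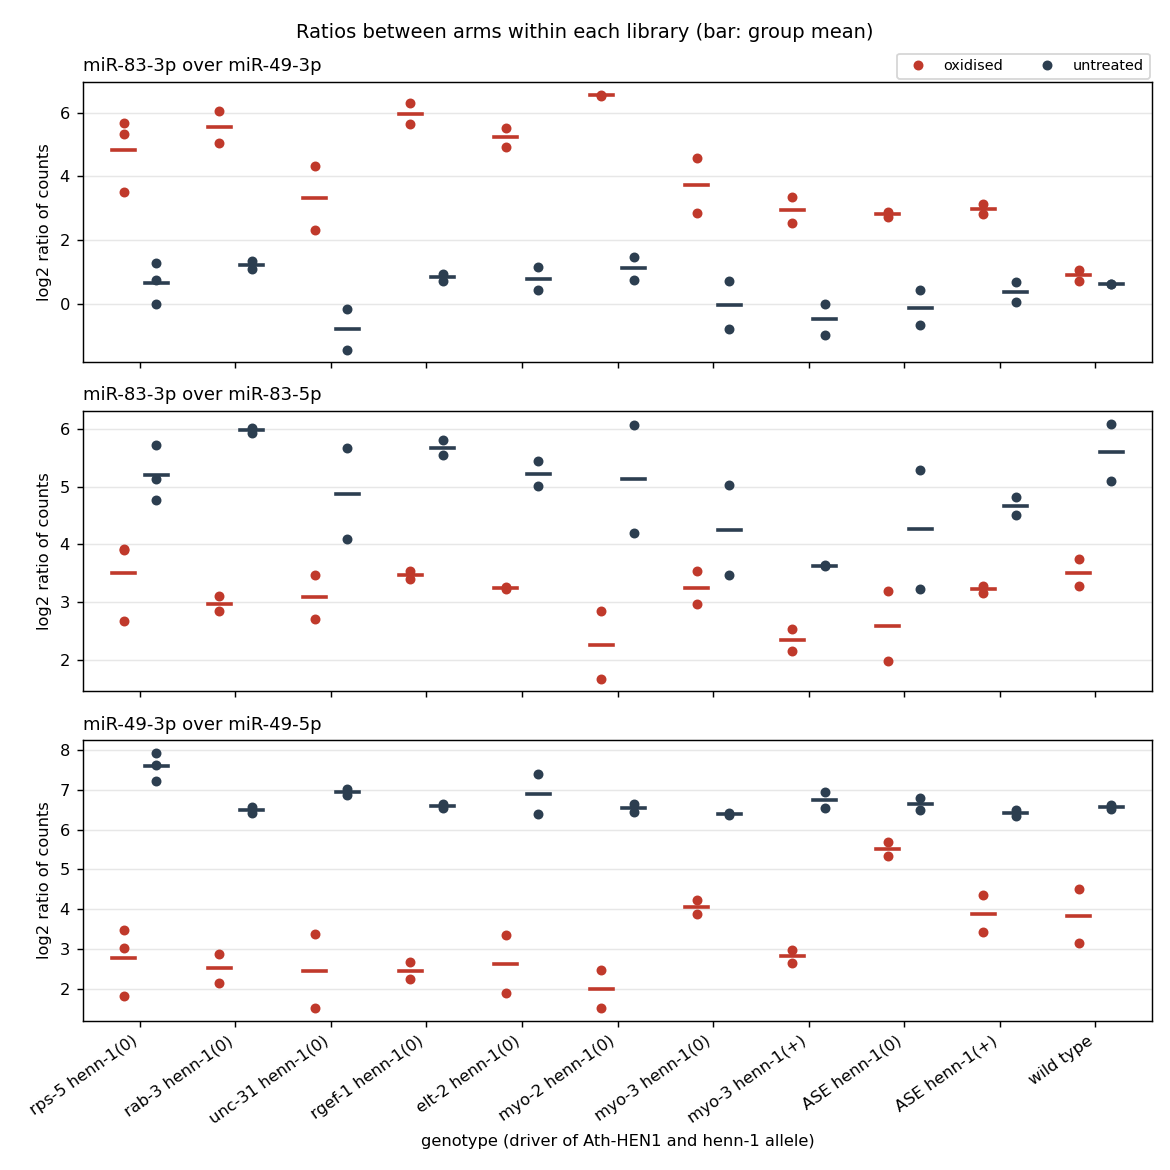
Log2 ratios between members within each library, by genotype, for oxidised (red) and untreated (dark) libraries, with bars at the group means. The ratio of miR-83-3p to miR-49-3p is higher in oxidised libraries of all 11 genotypes, by 0.28 in wild type to 5.43 in myo-2 worms, and both ratios of a 3p to its 5p arm are lower, except for overlapping libraries of miR-83 in myo-3 henn-1(0) worms.

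The oxidation effect of each transgenic genotype was also set against that of wild type, the worms without Ath-HEN1. Wild type has henn-1 while 8 of the 10 transgenic genotypes are henn-1(0), so in those 8 Ath-HEN1 and the loss of henn-1 cannot be told apart. These comparisons share the wild type libraries. Both arms of miR-83 stood above wild type with the elt-2, rab-3, rgef-1, unc-31, myo-2 and ASE henn-1(0) transgenes, where both were called with TMM and in all 6 alternatives. The differences of miR-83-3p were 6.21 ± 0.66 for elt-2, 4.85 ± 0.64 for rab-3, 5.01 ± 0.64 for rgef-1, 4.09 ± 0.63 for unc-31, 3.94 ± 0.63 for myo-2 and 4.83 ± 0.64 for ASE henn-1(0) (log2, SE; edgeR, adjusted p at most 1.94e-06). The smallest under any alternative was 1.72 for myo-2 with total counts. Without the untreated or the oxidised unc-31 library of line 1 the unc-31 value was 5.04 or 3.34.

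For miR-83-5p the same differences were 6.13 ± 0.78 for elt-2, 5.80 ± 0.78 for rab-3, 5.15 ± 0.77 for rgef-1, 3.92 ± 0.75 for unc-31, 4.85 ± 0.76 for myo-2 and 4.42 ± 0.76 for ASE henn-1(0) (edgeR, adjusted p at most 2.95e-05). The broad rps-5 driver gave 3.74 ± 0.58 for miR-83-3p and 3.34 ± 0.68 for miR-83-5p, both called, but 1.15 and 0.70 with RLE factors, neither called, and 4 and 1 of 6 alternatives called them. All 7 called values of miR-83-5p moved with the wild type libraries, between 2.63 and 5.42 without the untreated library of 171 CPM and between 4.24 and 7.02 without the oxidised one of 258 CPM. The myo-2 value was 5.44 and 3.82 without its oxidised line 7 and line 30 library and 5.66 without its untreated line 30 library, and the ASE henn-1(0) value 3.83, 5.43 and 3.58 without its untreated line 5, untreated line 9 and oxidised line 9 library.

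In body wall muscle neither arm of miR-83 stood firmly above wild type. The myo-3 henn-1(0) difference was 1.86 ± 0.61 for miR-83-3p (edgeR, adjusted p = 0.0114), but 1.23 with RLE factors and -0.44 with total counts, neither called (2 of 6 alternatives called it), and 1.45, 1.37 and 1.48 without the oxidised wild type library of 919.7 CPM, the untreated line 2.2 or the oxidised line 11.16 library, also not called (2.62 without the untreated line 11.16 library). For miR-83-5p it was 0.89 ± 0.73 and not called. The myo-3 henn-1(+) differences were 1.12 ± 0.61 and 0.40 ± 0.73, not called, the second of them -1.65 and called lower with another TMM reference library, -1.99 and called without a filter, and -2.46 without the oxidised line 2 library, which edgeR otherwise takes as the TMM reference. ASE henn-1(+) gave 1.55 ± 0.61 (adjusted p = 0.201; 1.57 and called with the transgenic line as a block) and 0.96 ± 0.73.

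miR-49-3p gave no difference above wild type that held under most settings. The elt-2 (2.08 ± 0.53) and ASE henn-1(0) values (2.21 ± 0.53) were called (edgeR, adjusted p = 0.000968 and 0.000506), but came to 0.53 and 0.32 with RLE factors and, for elt-2, to -0.04 with total counts, and only the block of the transgenic line among the 6 alternatives called them. It was lower than in wild type with the body wall muscle drivers, at -1.94 ± 0.53 in myo-3 henn-1(+) and -1.40 ± 0.52 in myo-3 henn-1(0) worms (adjusted p = 0.00551 and 0.0264), called under all 6 alternatives. The first was -4.10 without the oxidised line 2 library. The second was -2.003 without the oxidised line 2.2 library and lost its call without the untreated wild type library of 3401 CPM (-1.30), the oxidised wild type library of 426000 counts (-1.05), the untreated line 2.2 (-1.27) or the oxidised line 11.16 library (-0.97). The myo-2 value of -1.13 ± 0.52 was not called with TMM (0.0806), but all 6 alternatives called it lower, from -3.34 with total counts to -1.15 with the block. It was also called without the oxidised wild type library of 561 CPM (-1.42). The rps-5, rab-3, unc-31, rgef-1 and ASE henn-1(+) values were -0.12, 0.87, 0.40, 0.18 and -0.72, not called with TMM. The rps-5 and rgef-1 values were called lower in 5 of 6 alternatives, down to -2.70 and -2.48, and the rab-3 and unc-31 values in 2 of 6, down to -1.69 and -1.61.

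miR-49-5p stood above wild type in elt-2 worms by 3.73 ± 0.63 (edgeR, adjusted p = 3.78e-06), called under all 6 alternatives and 3.05 without the oxidised line 3A library, and below it in myo-3 henn-1(0) worms by -1.87 ± 0.63 (0.0139). The myo-3 henn-1(0) value lost its call without the untreated wild type library of 34.7 CPM (-1.73), the oxidised wild type library of 62.6 CPM (-1.44) or the oxidised line 11.16 library (-1.57). The rps-5, rab-3, unc-31 and rgef-1 values of 1.97, 2.07, 2.22 and 1.59 were called, but with RLE factors they were -0.67, -0.51, -0.03 and -1.13, and of the 6 alternatives only the block called them. The unc-31 value was 1.57 without its oxidised line 1 library, and the rgef-1 value lost its call at 1.28 to 1.51 without any of 4 of the 8 libraries compared. The myo-2, myo-3 henn-1(+), ASE henn-1(+) and ASE henn-1(0) values were 0.79, -0.83, -0.86 and 0.60, not called with TMM. The myo-3 henn-1(+) value was called lower in 5 of 6 alternatives, down to -3.25, and without the oxidised line 2 library (-3.06). The myo-2 value was -1.37 and called with total counts, and the ASE henn-1(0) value -1.33 and called in DESeq2.

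By genotype and with TMM, all 4 members differed from wild type in elt-2 worms, where 54.2% of the 395 arms did. In rps-5, rab-3, unc-31, rgef-1, myo-3 henn-1(0) and ASE henn-1(0) worms 3 of the 4 differed (background 59.2%, 57%, 55.9%, 56.5%, 47.1% and 53.2%), in myo-2 worms 2 (42.5%), in myo-3 henn-1(+) worms 1 (21%) and in ASE henn-1(+) worms none by edgeR (4.56%), where miR-83-3p alone had an unadjusted p under 0.05 and DESeq2 called none.

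Between tissues, the oxidation effect was higher with the intestinal driver than with the muscle drivers for all 4 members. For miR-49-3p, however, the myo-2 and myo-3 henn-1(0) effects (-5.38 and -5.64) lay below that of wild type (-4.24). Its elt-2 effect was called above that of wild type in only 1 of 6 alternatives, so this difference does not show survival above wild type in the intestine. The effect in elt-2 worms minus the mean effect of myo-2 and myo-3 henn-1(0) was 3.34 ± 0.47 for miR-49-3p, 4.27 ± 0.56 for miR-49-5p, 3.31 ± 0.55 for miR-83-3p and 3.26 ± 0.64 for miR-83-5p (log2, SE; edgeR, adjusted p at most 7.62e-05), where 34.4% of the arms were called. All 4 were also called under the 6 alternatives, where the lowest values were 2.69, 3.55, 2.62 and 2.59 in the same order. Without the oxidised elt-2 library of line 3A the value of miR-49-5p was 3.59.

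The intestinal driver also stood above the mean of the neuronal drivers, which were unlike each other for miR-83. The oxidised CPM of rab-3 libraries overlapped with that of elt-2 libraries for both miR-83 arms (means of 2517 and 2510 CPM for miR-83-5p). Those of rgef-1 and unc-31 worms lay below elt-2. The mean of rab-3, unc-31 and rgef-1 minus elt-2 was -1.59 ± 0.43 for miR-49-3p, -1.77 ± 0.50 for miR-49-5p and -1.56 ± 0.50 for miR-83-3p, all called (edgeR, adjusted p = 0.00182, 0.00273 and 0.00871), and -1.18 ± 0.59 for miR-83-5p, not called with TMM (0.103). All but total counts (-0.73) among the 6 alternatives called the last value, at -2.08 to -1.20, the block among them at -1.20. In this comparison 46.6% of the arms were called. The miR-49-3p call was lost in 1 of 6 alternatives, at an adjusted p of 0.0561, and the miR-49-5p call without the oxidised elt-2 library of line 3A, at -1.09.

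The neuronal mean stood above the mean of both muscle drivers for all 4 members with TMM. The differences were 1.75 ± 0.34 for miR-49-3p, 2.50 ± 0.40 for miR-49-5p, 1.75 ± 0.40 for miR-83-3p and 2.08 ± 0.47 for miR-83-5p (edgeR, adjusted p at most 0.000316, background 50.4%). With RLE factors only that of miR-49-5p was called, and the other values were 0.23, 0.17 and 0.51. Of the 6 alternatives, 4 called each of these 3. The muscle drivers were unlike for miR-83-5p, with 2.98 in myo-2 and -0.97 in myo-3 henn-1(0) worms. With TMM, its myo-2 effect lay above that of unc-31 (2.05) and below those of rab-3 (3.93) and rgef-1 (3.28). For the other members the myo-2 effect with TMM lay below that of each neuronal driver, for miR-83-3p at 0.03 against 0.17 in unc-31 worms. With RLE factors this did not hold for miR-83-3p, at 1.29 in myo-2 and 0.78 in rgef-1 worms. Against the broad rps-5 driver the neuronal mean was higher for miR-83-5p alone, by 1.61 ± 0.51 (adjusted p = 0.00732; 57.2%), and the other values were 0.60, -0.01 and 0.91, the last called with the block at 0.98 and under all other alternatives too. Leaving out the oxidised rps-5 library of line 22.3 gave a miR-49-3p value of 1.03, which was called, as was the 1.01 with another TMM reference library, and miR-83-3p was called at 1.10, 1.23 and 1.07 without an oxidised rps-5 line 16.1, the untreated unc-31 line 1 or the oxidised unc-31 line 5 library.

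Both muscle drivers differed for 3 of the 4 members. The myo-2 minus myo-3 henn-1(0) difference was 3.96 ± 0.74 for miR-83-5p, 2.66 ± 0.63 for miR-49-5p and 2.08 ± 0.61 for miR-83-3p (edgeR, adjusted p at most 0.00852), called under all 6 alternatives, and 0.26 ± 0.52 for miR-49-3p (0.783), where 27.6% of the arms were called. The 95% interval for miR-49-3p ran from -0.80 to 1.32. The miR-83-3p call was lost without the untreated line 30 (1.83), oxidised line 2.2 (1.78) or untreated line 11.16 library (1.32). Without the oxidised line 30 library miR-83-5p came to 2.93 and miR-49-5p to 1.81, and without the oxidised line 7 or the untreated line 30 library miR-83-5p came to 4.55 or 4.77.

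In the ASE pair 2 members differed from the neuronal mean. ASE henn-1(0) minus that mean was 1.72 ± 0.43 for miR-49-3p, called under all 6 alternatives (edgeR, adjusted p = 0.00176), and -1.36 ± 0.51 for miR-49-5p (0.0410), called in 2 of the 6 and lost without any of 10 of the 16 libraries, at -1.54 to -1.14 over all omissions. The values were 0.18 for miR-83-3p and -0.53 for miR-83-5p, and the background was 30.9%.

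The worm's own methyltransferase could be examined with both drivers that were used with and without it. ASE henn-1(0) minus ASE henn-1(+) was 2.92 ± 0.53 for miR-49-3p, 1.46 ± 0.64 for miR-49-5p, 3.28 ± 0.62 for miR-83-3p and 3.46 ± 0.74 for miR-83-5p, all called (edgeR, adjusted p = 1.35e-05, 0.0488, 2.71e-05 and 0.000125), where 58% of the arms were. With RLE factors they were 1.01, -0.42, 1.35 and 1.58, none called, and 4 of 6 alternatives called each, except 1 of 6 for miR-49-5p. The miR-49-5p call was lost without any of 7 of the 8 libraries, at 1.08 to 1.65, and the value was 2.07 without the oxidised ASE henn-1(+) library of line 9. Likewise, miR-83-5p came to 2.87, 4.47 and 2.63 without the untreated line 5, untreated line 9 and oxidised line 9 library of ASE henn-1(0). In CPM, oxidised ASE libraries held more of all 4 members without henn-1 than with it, except for overlapping libraries of miR-49-5p. The same contrast with the myo-3 driver called none of the 4 by edgeR, and no unadjusted p was under 0.05 (0.54, -1.04, 0.75 and 0.49 in the same order, background 14.4%), whereas 4 of 6 alternatives called the 3p arms higher, DESeq2 among them, at 1.501 with RLE factors to 2.18 for miR-49-3p and 1.70 to 2.31 for miR-83-3p, and another TMM reference library called miR-83-5p at 2.13. Without the oxidised myo-3 henn-1(+) library of line 2, the values of miR-49-3p, miR-83-3p and miR-83-5p were 1.80, 2.35 and 2.39 and called. Oxidised depth differed with the myo-3 driver, at 1137471 and 1444791 counts with henn-1 and 10050574 and 10722045 without it. With the ASE driver the oxidised henn-1(0) totals (1011043 and 1055616) lay between those of henn-1(+) (632514 and 1267212). Untreated ASE libraries were deeper with henn-1 (43302426 and 39573519) than without it (13254452 and 14186154). The part of depth was not tested.

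Across the 11 genotypes the arms of miR-83 went together more than those of miR-49. The oxidation effects of miR-83-3p and miR-83-5p had a Pearson r of 0.971, those of miR-49-3p and miR-49-5p 0.700, and those of both 3p arms 0.698. These correlations describe 11 points that share libraries, scaling and 1 fit. The arms most like miR-83-3p were miR-392-3p (0.955), miR-392-5p (0.914), miR-259-5p (0.909), miR-355-5p (0.904) and miR-1020-3p (0.893). Those most like miR-83-5p were miR-392-3p (0.958), miR-355-5p (0.919), miR-392-5p (0.917), miR-75-5p (0.916) and miR-1020-3p (0.906).

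miR-392-3p also had its largest effect among these drivers in elt-2 worms, 3.86, with 2.73 in rab-3, 2.13 in rgef-1 and -3.79 in wild type worms. The arms most like miR-49-3p were miR-75-3p (0.869), miR-60-3p (0.801), miR-259-3p (0.783), miR-4925-3p (0.777) and miR-74-3p (0.769), and those most like miR-49-5p were miR-259-3p (0.929), miR-392-3p (0.914), miR-8194-5p (0.908), miR-259-5p (0.898) and miR-355-5p (0.897). Of the marker arms, all 4 members were most like miR-60-3p of the intestine, with r of 0.801 for miR-49-3p, 0.804 for miR-49-5p, 0.777 for miR-83-3p and 0.759 for miR-83-5p. In the same order, the values were 0.49, 0.43, 0.54 and 0.53 with miR-124-3p of neurons, and 0.55, 0.19, 0.33 and 0.30 with lsy-6-3p. With miR-1-3p of muscle they were -0.57, -0.34, -0.07 and -0.10.

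**Figure D4:**
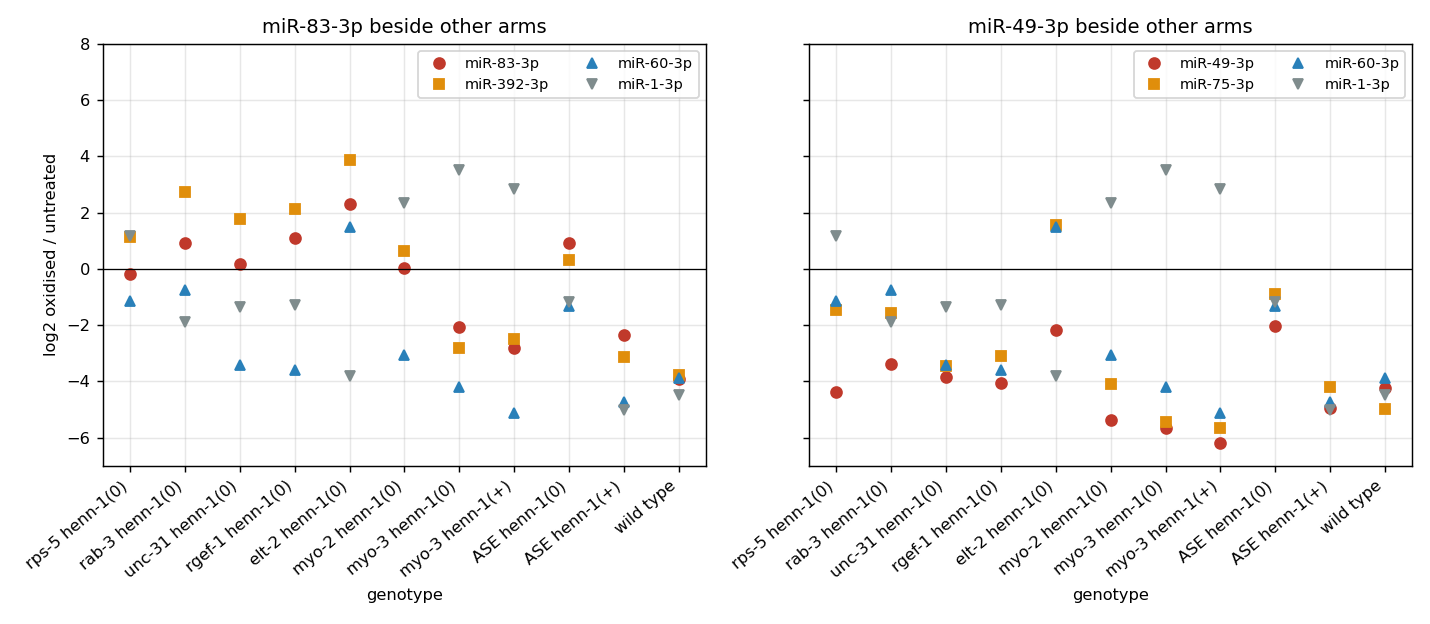
Oxidation effects (log2, TMM scaling) of miR-83-3p and miR-49-3p over the 11 genotypes, each beside its most alike arm and the intestinal and muscle markers miR-60-3p and miR-1-3p. miR-83-3p follows miR-392-3p (r = 0.955, n = 11), and miR-49-3p follows miR-75-3p (r = 0.869), with the highest values of miR-83-3p, miR-392-3p and miR-75-3p in elt-2 worms; the r values describe points that share libraries and scaling.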

How the data were processed

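Each library has a table of 916 entries, of which 473 are worm arms and the rest were 0, and the values the authors deposited are expected counts. The tools cutadapt 1.2.1 and HTSeq 0.6.1p1 and the build WBcel235 come from the submitters' processing notes; for the aligner, none is given in the sources used here. Values themselves gave the unit: 20 to 51 arms per library were fractional by more than 1e-06, while all 184 member values were whole. Reads shared with other loci may have been split by the authors' counting.

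Expected counts were rounded and fitted with edgeR 4.0.16 (limma 3.58.1, R 4.3.3): a minimum count of 10, which left 395 arms with 100% of the counts, TMM factors, robust quasi-likelihood dispersion and 22 coefficients, 1 for each genotype and treatment. P-values were adjusted by Benjamini-Hochberg within a comparison and called at 0.05; intervals are at the 95% level. Ratios of counts in a library, with 0.5 added on the log2 scale, were tested by permuting the treatment within genotypes 100000 times. Positions come from the annotation of WBcel235.

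Members, marker arms and comparisons were chosen with earlier results of these data known. Arms other than members were named by a rule: marker arms, and the 5 arms with the highest Pearson correlation to each member. Its part on arms that share a seed was not used here.

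Lines pair an oxidised with an untreated library of the same strain; their deviations correlated at over 0.1 in 7 of 10 genotypes (-0.0019 to 0.774), and a fit with the line as a block is given where it changes a call. Other alternatives were RLE factors, total counts, no filter, DESeq2 1.42.0, 1 genotype alone and each library left out. A TMM fit with another reference library was chosen after seeing the data.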

Additional observations from a re-analysis of the deposited data

Results flagged for a closer look

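Differences between drivers in the oxidation effect that passed the test of the difference itself (edgeR, contrasts in 1 fit) are listed here on the log2 scale; the report gives their errors and the settings under which they change. The comparisons share groups and are not independent of each other.

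Intestine minus muscle differed for all 4 members, by 3.34 for miR-49-3p, 4.27 for miR-49-5p, 3.31 for miR-83-3p and 3.26 for miR-83-5p. Neurons minus muscle differed by 1.75 for miR-49-3p, 2.50 for miR-49-5p, 1.75 for miR-83-3p and 2.08 for miR-83-5p. Neurons minus intestine differed by -1.59 for miR-49-3p, -1.77 for miR-49-5p and -1.56 for miR-83-3p. Pharyngeal minus body wall muscle differed by 2.66 for miR-49-5p, 2.08 for miR-83-3p and 3.96 for miR-83-5p.

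ASE henn-1(0) worms minus the mean of the pan-neuronal drivers differed by 1.72 for miR-49-3p and -1.36 for miR-49-5p, and neurons minus the rps-5 driver by 1.61 for miR-83-5p. ASE henn-1(0) minus ASE henn-1(+) differed by 2.92 for miR-49-3p, 1.46 for miR-49-5p, 3.28 for miR-83-3p and 3.46 for miR-83-5p. No explanation of these differences was tested.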

How the results depend on the processing

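Every value here is a log2 effect or difference, and a sign change of a value that was not called before or after is not counted as a change. The 3 within-library ratios need no scaling and kept their direction and call with a pseudocount of 1 and without any library (3.60 to 3.78, -2.01 to -1.82 and -3.62 to -3.45). Of the oxidation effects, the 11 of miR-49-3p stayed called lower throughout. With RLE factors the effect was 0.55 for miR-83-5p and 0.91 for miR-49-5p in wild type, 0.78 for miR-83-3p in rgef-1, 1.29 in myo-2, -0.34 in myo-3 henn-1(0), 0.0221 in ASE henn-1(+) and 1.37 in ASE henn-1(0), and 1.48 for miR-83-5p in ASE henn-1(+) worms; against wild type miR-49-5p came to -0.67 in rps-5, -0.51 in rab-3, -0.0296 in unc-31 and -1.13 in rgef-1, and miR-49-3p to -1.69 in rab-3, -1.61 in unc-31 and -2.48 in rgef-1; the henn-1 difference of miR-49-5p with ASE was -0.42. DESeq2 gave close values, among them 0.0220 for miR-83-3p in ASE henn-1(+), -0.52 and -0.0309 for miR-49-5p in rab-3 and unc-31 against wild type and -0.44 for its henn-1 difference, and added 0.0126 for miR-49-5p in ASE henn-1(+) and -1.33 for it in ASE henn-1(0) against wild type. With total counts the values were 0.38 (miR-83-5p) and 0.59 (miR-49-5p) in wild type, and for miR-83-3p 1.41 in rab-3, 0.96 in unc-31, 1.55 in ASE henn-1(0) and -0.49 in ASE henn-1(+); against wild type they were -1.79 in rgef-1 and -0.0420 in elt-2 for miR-49-3p, -0.302 in rgef-1 and -1.37 in myo-2 for miR-49-5p, and -0.44 in myo-3 henn-1(0) for miR-83-3p. Without a filter they were 0.15 (miR-83-5p) and 0.52 (miR-49-5p) in wild type, 0.96 in rgef-1 and 1.35 in ASE henn-1(0) for miR-83-3p, and against wild type -0.25, -0.0401 and -0.55 for miR-49-5p in rps-5, rab-3 and rgef-1, -1.93 for miR-49-3p in rgef-1 and -1.99 for miR-83-5p in myo-3 henn-1(+). edgeR chose the oxidised myo-3 henn-1(+) library of line 2 as the TMM reference, and each of 46 libraries in its place moved the wild type effect of all arms by 0 to 2.30. With an untreated wild type library as the reference the values were 0.22 for miR-49-5p in wild type, -0.90 in myo-3 henn-1(0) and 1.27 in ASE henn-1(0) for miR-83-3p, and against wild type -0.0679, -0.0496 and -0.0680 for miR-49-5p in rps-5, rab-3 and rgef-1, -1.40 for miR-49-3p in rgef-1 and -1.65 for miR-83-5p in myo-3 henn-1(+). In 1 genotype's libraries alone miR-83-3p was called in rab-3 (0.94) and ASE henn-1(0) worms (0.92), and the replicate block called them at 0.92 and 0.93; the report gives the other 6 calls it added, it removed none, and it cannot give the untreated comparison. Of all 395 arms, myo-3 henn-1(+) minus wild type called 83 and 175 to 189 under 5 other settings, myo-3 henn-1(0) minus henn-1(+) 57 and 99 to 173 under 4, ASE henn-1(0) minus henn-1(+) 229 and 150 (RLE) or 152 (DESeq2), ASE henn-1(0) minus wild type 210 and 129 without a filter, and the untreated comparison 1 and 2 without a filter or 6 with DESeq2. Leaving out 1 library moved 55 of 1166 values across the threshold or sign; the range was 0.77 to 1.36 for miR-83-3p in rgef-1 worms and -2.46 to 1.29 for miR-83-5p in myo-3 henn-1(+) worms against wild type; the single library left in a group is then assumed to vary like the other groups. The cause of these changes was not tested. Depth limits the precision in the shallow oxidised libraries of wild type, ASE henn-1(+), ASE henn-1(0) and myo-3 henn-1(+) worms, where a member had as few as 8 counts.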
